A study of Mus musculus with 24 samples.

Results

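B1 elements are short interspersed repeats of the mouse genome, listed by the deposited repeat table under the class and family name SINE/Alu. The table held 492046 such copies among 4929385 repeat loci, and the 253284 B1 copies (51.5%) whose value was not 0 in at least 1 of its 9 columns are described here. A copy is identified by chromosome, start and end on the mouse build GRCm39. The rows give no subfamily, strand or host gene.

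B1 elements derive, like the Alu elements of primates, from 7SL RNA, the RNA of the signal recognition particle. They spread through RNA copies that the reverse transcriptase of L1 elements writes back into the genome. An intact copy carries an internal promoter for RNA polymerase III, but most B1 sequence in cellular RNA lies inside longer transcripts made by RNA polymerase II, chiefly in introns. B2 and B4 are the other abundant rodent SINE families, and B2 derives from a tRNA.

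RNA made during short labelling windows was captured from E14TG2a mouse embryonic stem cells after incorporation of 5-ethynyl uridine (EU), given at 1 mM for 10, 20, 40 or 60 min. The cells had a knockout of Alkbh5 (KO), carried the allele Alkbh5 del-cIDR (the series' design text spells it with a Δ and its title names intrinsically disordered regions), or were unmodified (WT). ALKBH5 removes the N6-methyl mark from adenosines of RNA. All groups grew in serum medium with LIF, PD0325901 (a MEK inhibitor) and CHIR99021 (a GSK3 inhibitor), and all received the same amount of labelled Drosophila RNA. Each of the 12 groups had 2 libraries, so each genotype had 8. The labels give no clone names, and the labelled dishes of a genotype may be 1 line, so the spread behind each p-value is that between dishes.

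Libraries held 3654850 to 22122943 reads over repeats, 385617 to 2593933 of them on B1 copies, and 6037 to 23382 spike-in reads. Both del-cIDR libraries of 10 min were among the shallowest, with 4289454 and 3654850 repeat reads. In each group the library with more spike-in reads is called A and the other B, since the values do not show which replicate number is which. Alkbh5 itself was lower in KO than in WT by −0.60 ± 0.06 on the log2 scale relative to the median gene (SE; limma, adjusted p = 2.76e-06) and lower in del-cIDR than in WT by −0.46 ± 0.06 (limma, adjusted p = 6.33e-05). Reads over the whole gene check neither edit. The stem cell markers Pou5f1, Nanog, Sox2, Zfp42, Esrrb, Klf4 and Tfcp2l1 together had medians of 3333, 3338 and 3510 RPM, here scaled to gene reads, in KO, del-cIDR and WT libraries. Single members moved apart: in KO Tfcp2l1 (−0.61), Sox2 (−0.41) and Klf4 (−0.39) were lower than in WT and Zfp42 (0.25) higher, and in del-cIDR Zfp42 (−0.34) and Esrrb (−0.12) were lower and Klf4 (0.18) higher (limma, adjusted p under 0.05). Markers of fibroblasts, extraembryonic endoderm and trophoblast each summed to at most 8.99 RPM, and the trophoblast marker Cdx2 had a median of 0. The markers Zscan4c and Zscan4d of the 2-cell-like state moved with genotype. They summed to 66.6 to 84.9 RPM in KO, 10.1 to 14.2 in del-cIDR and 38.7 to 47.3 in WT libraries. The neural markers Pax6 and Sox1 summed to 17.2 to 28.6, 12.9 to 16.7 and 13.1 to 19.6 RPM in KO, del-cIDR and WT libraries. In KO Pax6 was higher than in WT by 1.57 (limma, adjusted p = 4.58e-08), while Sox1 had a difference of −0.055 (limma, adjusted p = 0.691). What these markers contribute to the B1 values was not tested.

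Reads were spread thinly over the B1 copies. The 253284 copies shared 39018115 reads over the 24 libraries, with a median of 24 reads per copy, a 10th percentile of 2 and a 90th percentile of 396. A set of 14008 copies (5.53%) held 50% of the reads, and the 1000 copies with most reads held 11.8%. Reads appeared in all 24 libraries for 40837 copies (16.1%) and in 1 library alone for 39145 (15.5%). Values of 2 reads were about as frequent as values of 1 read (16.6% and 17.0% of all values above 0), so mates of a pair may have been counted separately. A mean level of at least 10 reads per 11714 spike-in reads, and reads in at least 6 libraries, were required for testing. That filter kept 42494 copies, 16.8% of those with reads, against 14.1% of all repeat loci with reads, and these copies held 77.9% of all B1 reads.

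Detection varied with the annotated length of the copy. The 184012 copies of 136 to 150 bases, the length of a complete B1 element, formed the largest length class, and 45.7% of them had reads. Of the 126907 copies of 91 to 120 bases 59.0% had reads, and of the 28680 copies of up to 60 bases 40.4%. Copies over 150 bases had reads in 57.1% of 17948 cases. Per 100 bases, the median level was 0.437 reads per 11714 spike-in reads in the copies of 136 to 150 bases that had reads, against 1.43 in those of 91 to 120 bases and 2.17 in those of up to 60 bases. Copies with reads had a median length of 124 bases, and those without reads of 132. Copies of 91 to 120 bases thereby carried 34.4% of all B1 reads and copies of 136 to 150 bases 26.6%. How reads that fit several near-identical copies were counted is not given in the sources used here, and its part in these detection rates was not tested.

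**Figure D1:**
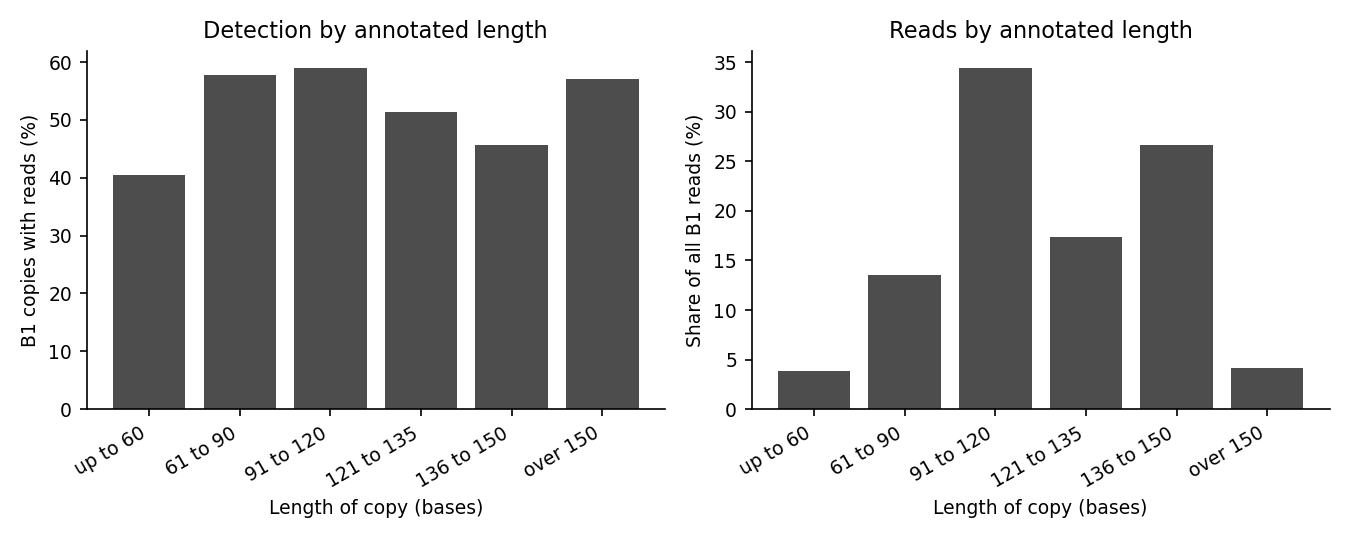
Percent of B1 copies with reads (left) and share of all B1 reads (right) by annotated length in bases, over all 24 libraries. Detection was 59.0% at 91 to 120 bases and 45.7% at 136 to 150 bases.

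Among the chromosomes, detection was highest on chromosome 11 (58.7% of copies) and chromosome 19 (56.9%). It was 39.7% on the X and 2.15% on the Y, where 157 of 7307 copies had reads. On the other autosomes it lay between 48.6% and 56.2%. Chromosome 11 also carried the largest share of B1 reads, 9.57%, and the X carried 2.53%.

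The B1 copy with the highest level lay at chr19:5851997-5852144, 148 bases long, with a mean of 1948 reads per 11714 spike-in reads and 100 bases. In RPM, its reads scaled to the repeat-table reads of the library, it had 177, 209.8 and 282 in KO libraries (lowest, median and highest), 156, 169 and 422 in del-cIDR libraries and 160.5, 208 and 347 in WT libraries. The genotypes overlapped, and neither difference passed the test (limma, adjusted p = 0.803 for KO and 0.745 for del-cIDR). At this copy the split of reads between the libraries of a group was unclear in at least 1 group, and a shared split gives no spread. Next came copies at chrY:90807176-90807319 with 807 reads per 11714 spike-in reads and 100 bases, and at chr8:43638563-43638704 with 752. The copies at chr5:108233100-108233222, chr8:43758743-43758903 and chr8:107396334-107396490 had 620, 490 and 468 on that scale. At chr8:43758743-43758903 del-cIDR lay below WT by −0.49 (limma, adjusted p = 0.0491), a call that leaving out any 1 of 22 libraries ended (limma, adjusted p up to 0.125). The copy at chr8:107396334-107396490 separated KO from WT. It had 66.7, 69.4 and 81.1 RPM in KO, 25.2, 30.2 and 41.3 in del-cIDR, and 41.0, 45.7 and 54.0 in WT libraries. All KO libraries lay above all WT libraries, while the del-cIDR range reached into the WT range by its highest library. The log2 difference from WT was 0.61 ± 0.13 in KO (limma, adjusted p = 0.0106) and −0.63 ± 0.13 in del-cIDR (limma, adjusted p = 0.0142). The del-cIDR call was lost on the spike-in scale (−0.47, limma, adjusted p = 0.334).

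The first comparison asked how much labelled B1 RNA each genotype held per spike-in read. With labelling for 10, 20, 40 and 60 min, KO held 85.5 ± 12.3, 110 ± 13.7, 167 ± 21.1 and 231 ± 15.5 B1 reads per spike-in read (SD, 2 libraries per time). In del-cIDR the values were 30.1 ± 2.78, 157 ± 50.2, 239 ± 46.3 and 207 ± 46.6 (SD, n = 2 each). In WT they were 50.8 ± 11.9, 89.1 ± 2.35, 179.9 ± 54.3 and 186 ± 37.9 (SD, n = 2 each). Both KO libraries lay above both WT libraries at 10, 20 and 60 min, and the ranges overlapped at 40 min. The mean log2 difference of KO from WT over the 4 times was 0.33 (exact two-sided permutation of genotype within time, p = 0.0417, adjusted over 3 pairs 0.125). It came to 0.41 when WT library B of 40 min was left out, which passed (adjusted exact permutation p = 0.0139). The del-cIDR difference was 0.15 from WT (exact permutation p = 0.478, adjusted 0.486) and −0.17 from KO (exact permutation p = 0.486, adjusted 0.486). Without the 10 min libraries these 2 differences were 0.45 (exact permutation p = 0.037, adjusted 0.111) and 0.27 (exact permutation p = 0.185, adjusted 0.231), so that the difference from KO turned direction. The smallest p that these 1296 arrangements allow is 0.00154. In such bulk samples, fewer cells and less RNA per cell cannot be told apart.

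The del-cIDR genotype stood differently against the others at 10 min and at the later times. At 10 min it held less B1 RNA than WT, by −0.74 on the log2 scale, while at 20, 40 and 60 min the differences from WT were 0.78, 0.43 and 0.15. The mean of the later differences exceeded that at 10 min by 1.19 (exact permutation p = 0.00617, adjusted 0.0185). Against KO the same quantity was 1.77 (exact permutation p = 0.0309, adjusted 0.0463), and for KO against WT it was −0.58 (exact permutation p = 0.329, adjusted 0.329). Genotype was permuted within each time, so these p-values assume no genotype difference at any time. They do not test a change with time alone, and this contrast was not among the planned tests.

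B1 copies took a steady share of all repeat reads. The share was 11.5% ± 0.31 in KO, 11.4% ± 0.56 in del-cIDR and 11.3% ± 0.29 in WT libraries (SD, n = 8 each), within 10.5% to 11.9% in all 24. No pair of genotypes passed, with log2 differences of 0.023 for KO against WT, 0.015 for del-cIDR against WT and −0.0082 for del-cIDR against KO (exact permutation p = 0.239, 0.508 and 0.744, adjusted 0.718, 0.744 and 0.744). The 2 del-cIDR libraries of 10 min held the lowest shares, 10.49% and 10.55%, followed by WT library B of 10 min with 10.8%. Their B4 shares were 7.97%, 8.11% and 8.24%, against 8.34% to 9.37% in the others. Their B2 shares were 13.38%, 12.93% and 13.05%, against 13.11% to 14.41% in the others. Low shares in these libraries were thus not particular to B1. These 3 libraries also had the fewest repeat reads and L1 shares of 22.8% to 23.4%, against 19.2% to 22.4% in the others. The part of depth in the lower share was not tested. Without the 10 min libraries the del-cIDR share lay above that of WT by 0.049 on the log2 scale (exact permutation p = 0.00926, adjusted 0.0278). The mean later difference exceeded that at 10 min by 0.14 against WT (exact permutation p = 0.00154, the smallest these arrangements can give, adjusted 0.00463) and 0.19 against KO (exact permutation p = 0.00617, adjusted 0.00926). The limit given above for this contrast holds here too.

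**Figure D2:**
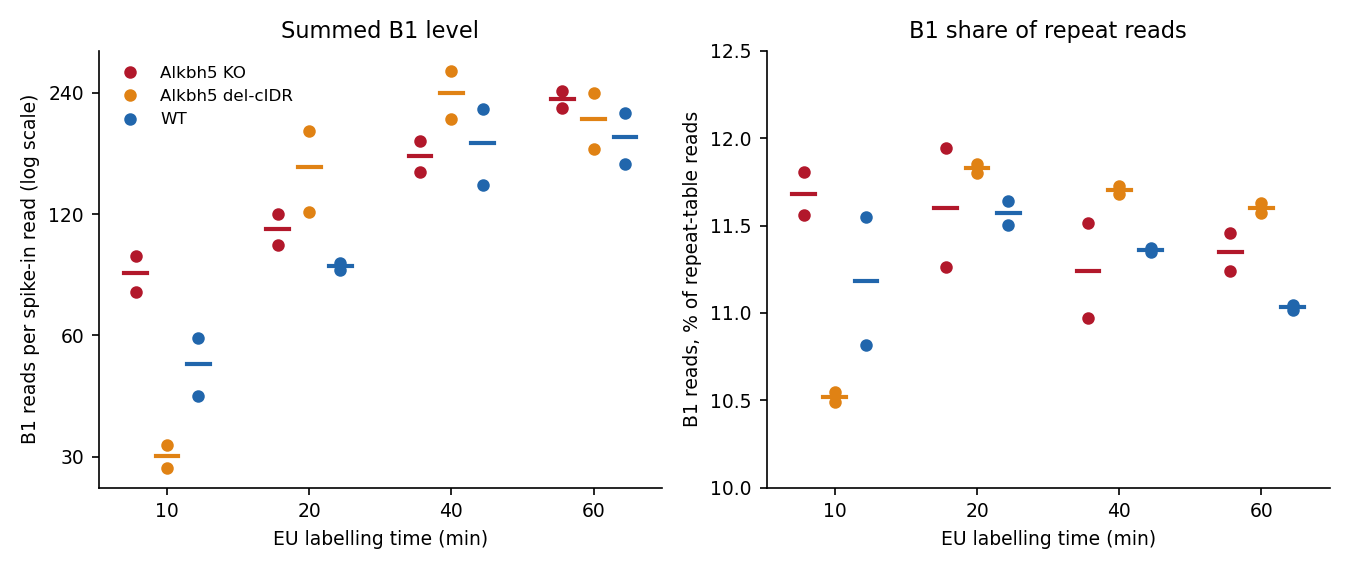
B1 reads per spike-in read on a log axis (left) and B1 reads as percent of repeat-table reads (right, axis from 10%) against EU labelling time in minutes, with 1 point per library and a bar at the mean of the 2 libraries. The del-cIDR libraries of 10 min stood lowest in both panels, at 30.1 B1 reads per spike-in read and 10.5% on average.

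With longer labelling the share changed little. Its slope per doubling of minutes was −0.020 in KO, 0.050 in del-cIDR and −0.0072 in WT on the log2 scale (exact permutation of times within genotype, p = 0.166, 0.0444 and 0.629, adjusted 0.249, 0.133 and 0.629). The del-cIDR slope rested on the 10 min libraries. Over 20 to 60 min alone it was −0.017, and that of WT −0.042, and both passed (exact permutation p = 0.0111 and 0.0222, adjusted 0.0333 each). Leaving out WT library B of 10 min also let the WT slope pass, at −0.028 (adjusted exact permutation p = 0.0429).

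B1 was then set against the SINE families most like it. B1 reads per B2 read were 0.837 ± 0.011 in KO, 0.826 ± 0.019 in del-cIDR and 0.826 ± 0.0045 in WT libraries (SD, n = 8 each). KO lay above WT by 0.020 on the log2 scale (exact permutation p = 0.0139, adjusted over 6 comparisons 0.0833), which did not pass. The difference passed without KO library A of 20 min (0.025, adjusted exact permutation p = 0.0463) and without KO library A of 60 min (0.0265, adjusted exact permutation p = 0.00926). B1 reads per B4 read were 1.31 ± 0.015 in KO, 1.31 ± 0.023 in del-cIDR and 1.31 ± 0.019 in WT libraries (SD, n = 8 each). None of the other 5 comparisons of B1 with B2 or B4 passed, with log2 differences of −0.021 to 0.0015 and adjusted exact permutation p of 0.468 to 0.975.

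Single B1 copies were tested next, on values relative to the median tested repeat locus of each library. Differences between genotypes are log2 differences averaged over the 4 times, on the log2(level + 1) scale, which understates the change of copies with low levels. On the spike-in scale the median of all tested loci lay 0.29 above WT in KO and 0.14 above WT in del-cIDR, and the values relative to the median locus leave these shifts out. Their median SE was 0.22 over the tested B1 copies.

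In KO, 664 B1 copies (1.56%) lay higher than in WT and 663 (1.56%) lower (limma, adjusted p under 0.05). Among all 306027 tested repeat loci 1.86% were called higher and 2.99% lower. The shares of B2 were 1.65% and 2.00% and those of B4 1.95% and 1.97%, and no difference between families was tested. The median difference was −0.027 over tested B1 copies and −0.033 over all tested loci. More than 2-fold differences were found at 120 of the higher and 220 of the lower copies, against 1305 and 4390 of the 306027 tested loci. The split was 2141 higher and 100 lower on the spike-in scale, against 16744 and 2769 over all tested loci. The count fell by more than 1.5 times without KO library A of 40 min (869), A or B of 60 min (831 and 734), WT library B of 20 min (875), A or B of 40 min (774 and 761), or A or B of 60 min (723 and 760). The even split also moved with single libraries, to 630 higher and 1307 lower without KO library A of 20 min and 624 and 997 without A of 10 min. It was 374 and 512 without KO library B of 40 min, and 1188 and 793 without WT library A of 10 min. Over all tested loci the splits in these 4 settings were 5334 and 13403, 5281 and 11787, 3330 and 7220, and 9143 and 10192. With all libraries that split was 5702 and 9136, so such moves were not particular to B1.

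The copies higher in KO gathered on a few chromosomes. Chromosome 6 held 264 higher and 10 lower copies of 2524 tested (median difference 0.37), chromosome 8 held 134 and 3 of 2409 (0.30), and chromosome 11 between 13 and 57 Mb held 163 and 2 of 991 (0.46). On the chromosomes other than 4, 6, 8, 11 and X, 78 copies were higher and 533 lower of 29492 tested (median −0.072). Called counts by chromosome were worked out for B1 copies alone. All tested repeat loci of chromosomes 6 and 8 had medians of 0.37 and 0.29, close to those of the B1 copies there. These chromosome-wide shifts were already known from earlier results of these data.

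**Figure D3:**
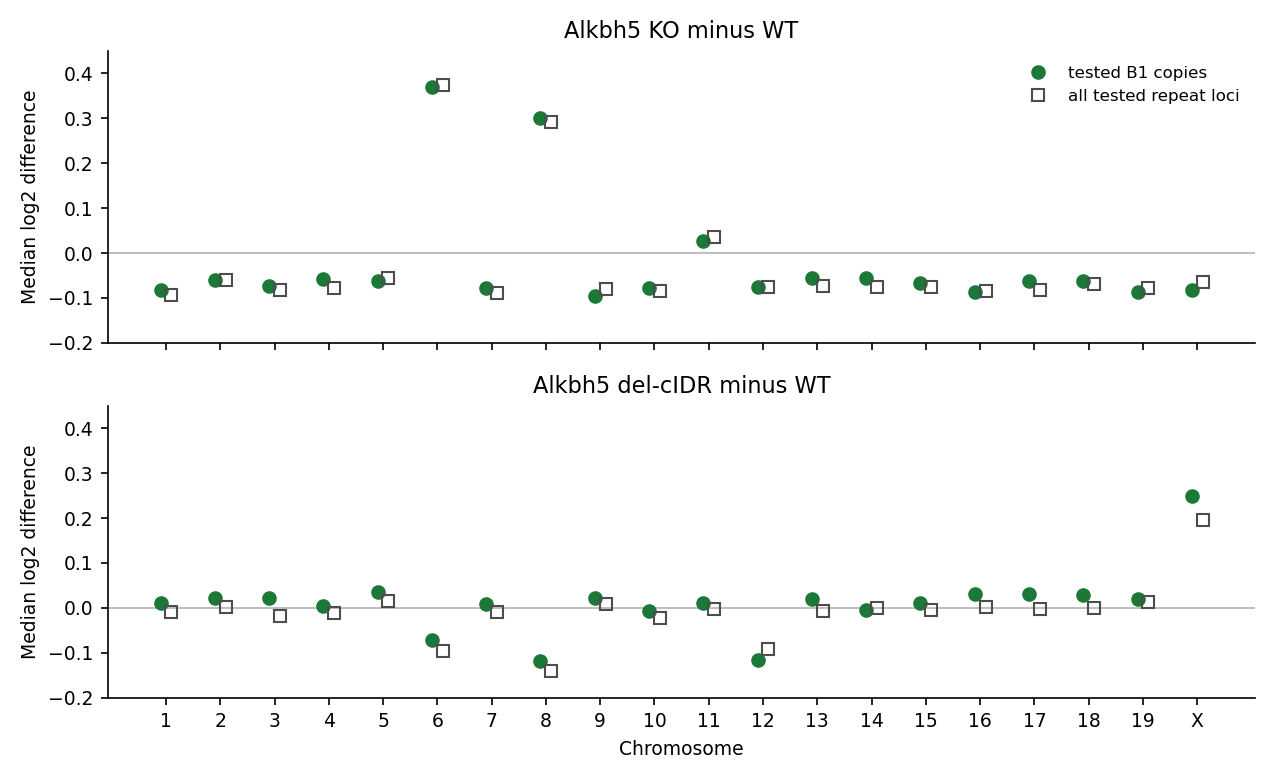
Median log2 difference by chromosome (Y left out) for tested B1 copies (filled circles) and all tested repeat loci (open squares), KO minus WT above and del-cIDR minus WT below. In KO the B1 medians of chromosomes 6 and 8 stood at 0.37 and 0.30, and in del-cIDR that of the X stood at 0.25.

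Some called copies lay close together. With copies less than 100 kb apart joined, the 664 copies higher in KO formed 284 stretches, 180 of them of 1 copy. The 663 lower copies formed 410, 298 of them of 1 copy. The same joining was not run on all tested B1 copies or on other families, so closeness is not read as a result. Stretches named here and below were picked for holding many called copies, so their B1 medians are a description. The fullest stretch, chr11:19877461-20185500, held 23 copies called higher. All 60 B1 copies tested there had a median difference of 0.63, and the 225 other repeats tested in the stretch one of 0.58. A stretch at chr8:107332980-107517611 held 18 higher copies, and its 42 B1 copies and 105 other repeats had medians of 0.67 and 0.61. Among lower copies the fullest stretch was chr14:56645557-56733632 with 11, where 20 B1 copies and 85 other repeats had medians of −0.85 and −0.82.

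Of the 6 copies named for the largest rise in KO, and so picked from these same libraries, 2 had KO and WT libraries that did not overlap. The copy at chr1:180722651-180722789 had 1.37, 2.44 and 3.76 RPM in KO (lowest, median and highest), 0, 0.117 and 0.423 in del-cIDR, and 0.371, 0.7295 and 1.33 in WT libraries. It was highest in KO and lowest in del-cIDR, with log2 differences from WT of 1.59 ± 0.21 in KO (limma, adjusted p = 0.000301) and −1.89 ± 0.21 in del-cIDR (limma, adjusted p = 0.000122). Other repeats within 10 kb of it differed by 1.14 and −1.23 in the same directions. This order of genotypes is also that of Zscan4c and Zscan4d above, and of the medians at other named copies such as chr12:88219504-88219611. A link to these markers was not tested. The copy at chr6:83710470-83710583 had 5.68, 8.07 and 9.66 RPM in KO, against 1.77, 2.75 and 3.27 in WT libraries, a difference of 1.49 ± 0.16 (limma, adjusted p = 4.27e-05). Its neighbours within 10 kb differed by 1.56.

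The other 4 rested on fewer reads. They lay at chr11:19893044-19893121, chr8:26121801-26121938, chr8:125122669-125122816 and chr6:51527910-51527999, with 231 to 299 reads each over all libraries and differences of 1.52 to 1.57 (limma, adjusted p = 0.0158 to 0.0295). KO and WT libraries overlapped at each of them. Leaving out any 1 of 8, 10 or 7 single KO or WT libraries ended the call of the first, the second and the copy at chr6:51527910-51527999, with adjusted p (limma) of up to 0.0692, 0.0772 and 0.0767.

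All 6 copies named for the largest fall in KO had KO libraries below every WT library. As they were picked for large falls in these same libraries, this separation is a description and no further support. The share of such copies among all tested loci was not worked out. At chr14:32025599-32025751 each KO library had 1 or 2 reads, that is 0.0473, 0.134 and 0.171 RPM, while del-cIDR libraries had 1.37, 1.81 and 2.80 and WT libraries 0.75, 1.22 and 1.77. The difference of KO from WT was −2.79 ± 0.18 (limma, adjusted p = 1.38e-07). The copy at chr7:26093880-26094027 had 0.348, 1.29 and 1.62 RPM in KO, 2.46, 3.43 and 4.20 in del-cIDR, and 3.16, 8.56 and 10.4 in WT libraries. Both mutants were lower there, KO by −2.72 ± 0.23 (limma, adjusted p = 2.32e-06) and del-cIDR by −1.11 ± 0.23 (limma, adjusted p = 0.0146). The same held at chr10:88495472-88495580, with −2.06 ± 0.28 in KO (limma, adjusted p = 0.000393) and −1.46 ± 0.28 in del-cIDR (limma, adjusted p = 0.0105). Copies at chr5:104879676-104879819, chr16:90282873-90283016 and chr1:9013653-9013799 differed in KO by −2.75 ± 0.42, −2.11 ± 0.39 and −2.11 ± 0.27 (limma, adjusted p = 0.000957, 0.0049 and 0.000158). In del-cIDR their values were −0.016, 0.038 and 0.023, which did not pass. At these 6 copies the other repeats within 10 kb had differences of −1.01 to −2.74 in KO.

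In del-cIDR, 217 B1 copies (0.511%) lay higher than in WT and 385 (0.906%) lower (limma, adjusted p under 0.05). Among all tested repeat loci the shares were 0.638% higher and 1.69% lower. The median difference was 0.0036 over B1 copies and −0.015 over all loci. Of the B1 copies 56 higher and 142 lower ones passed 2-fold, against 747 and 2619 of the 306027 tested loci. The spike-in scale gave 112 higher and 61 lower, against 1181 and 1435 over all tested loci. Of the higher copies 86 lay on the X, where 1 of 1021 tested copies was lower and the median was 0.25. Chromosome 8 held 4 higher and 61 lower copies, and chromosome 6 held 6 and 41. All tested repeat loci of the X, chromosome 8 and chromosome 6 had medians of 0.20, −0.14 and −0.095. The B1 medians there were 0.25, −0.12 and −0.0715, so these shifts were not particular to B1. The count of called B1 copies was 1188 without del-cIDR library A of 10 min and 925 without B of 10 min. It was 1138 without WT library A of 10 min. Over all tested loci 3040, 2443 and 4991 were then higher and 8972, 7317 and 6442 lower. Without that WT library the majority of called B1 copies turned, with 643 higher and 495 lower, while that of all loci did not. The B1 count fell to between 285 and 387 when any del-cIDR library of 20, 40 or 60 min was left out. Counts within that range also came without WT library B of 20 min or either WT library of 40 or 60 min. Without del-cIDR library B of 40 min, which gave 285, 965 of all loci were higher and 3217 lower.

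The fullest stretch of higher copies was chrX:104854941-105166283, with 17 called. Its 62 tested B1 copies had a median difference of 0.60 and its 248 other repeats one of 0.58. Copies lower in del-cIDR were densest at chr8:107257108-107396490, with 19 called of 37 tested, medians of −0.86 for B1 and −0.81 for 57 other repeats. This stretch ends at the copy described above among the 6 with the highest levels.

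The 6 copies named for the largest rise in del-cIDR lay at chr12:42202080-42202205, chrX:105108889-105109026, chr3:90420064-90420179, chrX:138961032-138961147, chr16:4680619-4680764 and chrX:149847085-149847224. Their differences from WT were 1.45 to 1.83 (limma, adjusted p = 0.00284 to 0.0396), and del-cIDR and WT libraries overlapped at each. The copy at chr16:4680619-4680764 was also higher in KO than in WT, by 0.87 ± 0.24 (limma, adjusted p = 0.0487). There del-cIDR did not differ from KO past the threshold (0.61, limma, adjusted p = 0.111). At chrX:105108889-105109026 leaving out any 1 of 13 libraries ended the call (limma, adjusted p up to 0.107). The copy with most reads among them, chrX:149847085-149847224, had 0.933, 3.14 and 3.46 RPM in del-cIDR, against 0.451, 0.894 and 1.73 in WT libraries. Its difference was 1.45 ± 0.28 (limma, adjusted p = 0.0105), and its neighbours within 10 kb differed by 0.77.

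Among the 6 copies named for the largest fall in del-cIDR, 3 lay within 1 Mb on chromosome 12, at chr12:87994471-87994612, chr12:88219504-88219611 and chr12:87561116-87561223. Their differences from WT were −2.38 ± 0.23, −2.33 ± 0.26 and −2.23 ± 0.23 (limma, adjusted p = 3.07e-05, 0.000113 and 6.86e-05). At chr12:88219504-88219611 del-cIDR libraries had 0, 0.278 and 0.346 RPM, against 0.806, 1.58 and 2.51 in WT libraries. KO libraries had 1.03, 2.43 and 2.98 there, and KO did not differ past the threshold at any of the 3. The copies at chr11:94668278-94668356 and chr13:22205673-22205766 fell by −2.49 ± 0.25 and −2.16 ± 0.25 (limma, adjusted p = 5.26e-05 and 0.000162). At the copy on chromosome 13 del-cIDR libraries had 0.343, 0.61 and 1.40 RPM and WT libraries 2.08, 3.12 and 4.72. At these 5 copies other repeats within 10 kb had differences of −1.36 to −1.93.

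The remaining copy, chrY:90803758-90803801, was without a read in all 8 del-cIDR libraries. It is only 44 bases long and had 0.935, 1.57 and 2.36 RPM in KO and 0.677, 1.75 and 2.74 in WT libraries, with 3 to 49 reads in every library of these genotypes. A count of 0 allows up to 3 fragments over the group, or 6 reads if mates were counted separately, and with that limit del-cIDR was at least 35.9-fold lower than WT. KO and WT overlapped. The summed level of other repeats within 10 kb did not share the loss, with a difference of 0.030 in del-cIDR. The copy differed from that sum by −4.44 ± 0.24 (limma, adjusted p = 2.50e-07). The sum includes the copy at chrY:90807176-90807319, with a mean level of 1162 against 16.2 here. It therefore need not speak for the other repeats around the copy. Reads of near-identical copies are uncertain, since the assignment of multiply mapping reads is not given.

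Set against each other, del-cIDR and KO differed at more copies than either did from WT. In del-cIDR 1802 copies (4.24%) were higher and 2202 (5.18%) lower than in KO, against 5.78% and 6.77% of all tested loci (limma, adjusted p under 0.05). The spike-in scale gave 431 higher and 2256 lower, against 6155 and 21164 of all 306027 tested loci. On chromosomes other than 4, 6, 8, 11 and X the majority was the opposite, with 1314 higher and 613 lower. It also turned without KO library A of 10 min (2178 and 2002) or of 20 min (2587 and 1980). Over all tested loci it turned there too, with 20158 and 19121, and 22448 and 19217. Without del-cIDR library B of 20 min, A of 40 min or B of 40 min the higher copies numbered 1200, 1172 and 1181. Of all tested loci 12887, 12455 and 12897 were then higher. Chromosome 6 held 11 higher and 646 lower copies, chromosome 8 held 16 and 561, and the X held 213 and 9. These counts by chromosome were worked out for B1 copies alone and show nothing particular to B1. The comparisons with WT share their WT libraries, so their values are given side by side and not as agreement.

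An F test in limma over 3 contrasts asked whether genotype differences varied between labelling times. No B1 copy passed for KO against WT, where 2294 copies (5.40%) had an unadjusted p under 0.05, close to the 5.31% of all loci. None passed for del-cIDR against WT either, with 3731 copies (8.78%) at an unadjusted p under 0.05, close to the 8.84% of all loci. For del-cIDR against KO 4 copies passed. Among all tested loci 0.0%, 0.0% and 0.0163% passed in these 3 comparisons.

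The next comparison asked whether B1 copies moved apart from the sequence around them. The level of each copy was set against the summed level of all other repeats within 10 kb, which was possible for 42477 copies and was added after the other results were seen. Relative to these neighbours 2 B1 copies in KO were higher and 1 lower relative to WT, against 0.0395% of all loci in either direction. In del-cIDR 0 were higher and 2 lower than in WT, against 0.0216% of all loci (limma, adjusted p under 0.05). At an unadjusted p under 0.05 the counts were 2268 for KO and 2752 for del-cIDR, of 42477 copies each. Without the neighbours they were 6923 and 5768 of the 42494 tested copies. The share over all loci at that threshold was not worked out, so these counts are not read as departures from the neighbours. Between del-cIDR and KO 12 were higher and 14 lower, against 0.249% of all loci. The median SE was 0.23, close to the 0.22 without the neighbours.

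Neighbours moved with the copies that had been called. Of 1324 copies called between KO and WT with a neighbour level, 1306 (98.6%) shared the sign of their neighbours' difference. For del-cIDR against WT the count was 578 of 600 (96.3%). Over these called copies the median size of the difference was 0.81 for the copy and 0.55 for its neighbours in KO, and 0.88 and 0.48 in del-cIDR. Across the 42477 copies the differences of copy and neighbours had Pearson's r of 0.67 in KO and 0.59 in del-cIDR. This is a description, as copy and neighbours come from the same libraries and copies are not independent. The shares of equal sign were worked out for called B1 copies alone. They show nothing particular to B1 among repeats, or to called copies among B1 copies.

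**Figure D4:**
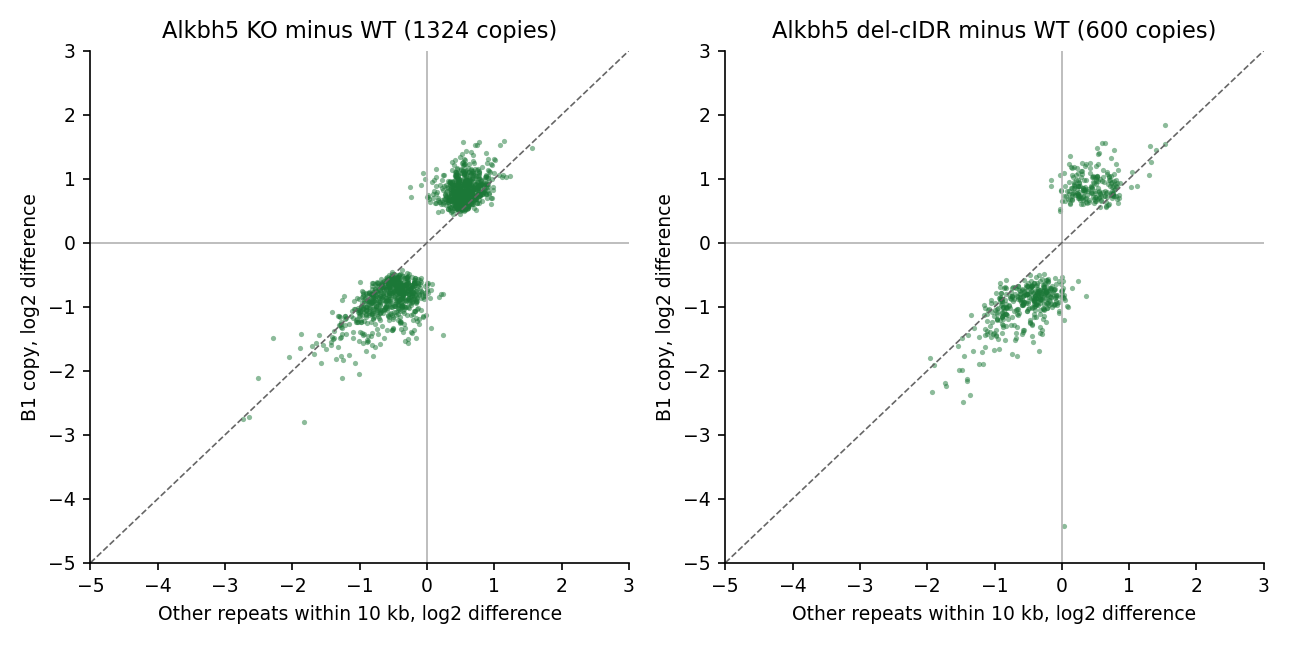
Log2 difference of each called B1 copy (vertical) against that of all other repeats within 10 kb (horizontal), KO minus WT left and del-cIDR minus WT right, with 1 point per copy and a dashed line of equality. Of the points 1306 of 1324 in KO and 578 of 600 in del-cIDR lie in the quadrants of shared sign, and the point at the bottom of the right panel is the Y copy with a difference of −4.42.

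Beside the Y copy, 4 copies stood apart from their neighbours in a genotype and were named after their values were seen. At chr4:147564402-147564547 KO libraries had 5.22, 6.41 and 9.59 RPM, del-cIDR libraries 7.11, 7.96 and 9.20, and WT libraries 8.29, 9.54 and 11.3. The copy's own difference in KO was −0.51 (limma, adjusted p = 0.0662) while its neighbours differed by −1.59, so it lay 1.09 above them (limma, adjusted p = 0.00899). The copy at chrX:138232515-138232656 lay 0.98 above its neighbours in KO (limma, adjusted p = 0.0428), and that at chr4:44847650-44847780 lay −0.99 below them (limma, adjusted p = 0.0477). In del-cIDR the copy at chr4:59754642-59754769 lay −1.18 below its neighbours (limma, adjusted p = 0.0319).

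More copies moved with labelling time than with genotype. Relative to the median locus, 6618 B1 copies (15.6%) rose and 3437 (8.09%) fell per doubling of minutes (limma, adjusted p under 0.05, slopes averaged over the genotypes). Of all tested loci 15.7% rose and 9.62% fell, and the median slope was 0.044 for B1 copies, 0.032 for all loci and 0.0098 for L1 loci. These medians depended on the 1 added to each level. With 4 added, they were 0.005 for B1 copies and 0.0062 for all loci. Then 7423 B1 copies rose and 5178 fell, against 56712 and 40408 of all 306027 loci. On the spike-in scale 42168 B1 copies rose and 2 fell, with a median slope of 0.79. Of all 306027 tested loci 302031 rose and 79 fell on that scale, with a median slope of 0.78. Rises were called at 17.9% of tested copies of up to 60 bases and 14.3% of those of 136 to 150 bases, and falls at 7.53% and 9.17%. Relative to other repeats within 10 kb, 1004 copies (2.36%) rose and 1055 (2.48%) fell, against 2.9% and 3.15% of all loci. Of 10049 called copies 9245 (92.0%) had neighbours of the same sign, a share worked out for B1 copies alone.

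The 3 copies with the largest rises with time had few reads at 10 min. At chr19:3853265-3853379 the 6 libraries of 60 min had 1.68, 2.66 and 4.23 RPM (lowest, median and highest), and those of 10 min 0, 0.419 and 0.929. No library of 10 min reached any of 60 min. The slope was 0.99 ± 0.11 per doubling (limma, adjusted p = 1.55e-05), and the copy rose by 0.51 per doubling beyond its neighbours (limma, adjusted p = 0.0175). The copy at chr1:7440684-7440809 had 0.623, 1.25 and 1.97 RPM at 60 min, against 0, 0.0357 and 0.226 at 10 min, and its neighbours shared its slope (0.87 against 0.97). At chrX:8068427-8068578 the values were 0.9496, 1.66 and 1.97 at 60 min, against 0, 0 and 0.50 at 10 min. Copies at chr15:103340361-103340478, chr5:25015832-25015946 and chr3:67507017-67507139 rose by 0.92 to 0.96 per doubling. The first of these was also lower in del-cIDR than in WT, by −1.48 ± 0.17 (limma, adjusted p = 0.000127), with no read in either del-cIDR library of 10 min.

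The 6 copies named for the largest falls had lower medians at 60 min than at 10 min. The copy at chr17:47495709-47495843 had 0.0571, 0.192 and 0.556 RPM in the 6 libraries of 60 min, against 1.35, 1.82 and 3.08 in those of 10 min. Its slope was −1.23 ± 0.09 (limma, adjusted p = 5.90e-07), and it fell on the spike-in scale too (−0.49, adjusted p = 8.69e-05). The copy at chr13:22220953-22221075 had 0.946, 1.28 and 2.46 RPM at 60 min, against 6.29, 7.72 and 13.2 at 10 min, with a slope of −0.98 ± 0.08 (limma, adjusted p = 1.16e-06). It too fell on the spike-in scale, by −0.24 per doubling (limma, adjusted p = 0.0269). At these copies no library of 60 min reached any of 10 min. Copies at chr16:43903617-43903756, chr19:3914169-3914314, chr8:85160216-85160321 and chr13:21901195-21901281 had slopes of −0.89 to −0.97, and none of these 4 passed on the spike-in scale (−0.15 to −0.23). Around the copy at chr19:3914169-3914314 the neighbours within 10 kb had a slope of −0.046, and the copy lay −0.95 per doubling below them (limma, adjusted p = 0.000462).

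**Figure D5:**
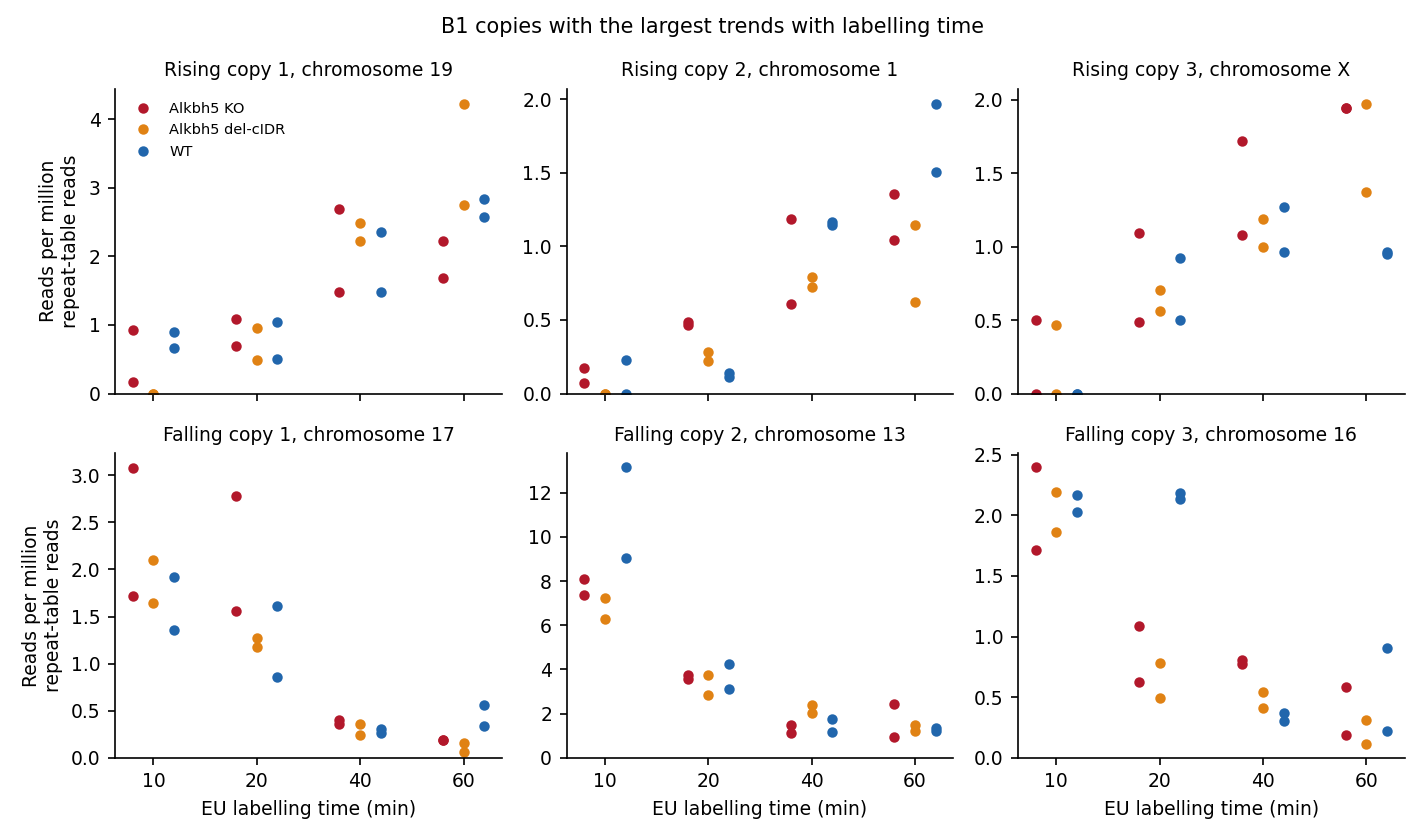
RPM (scaled to repeat-table reads, axes from 0) against EU labelling time in minutes for the 3 B1 copies with the largest rises (top) and the 3 with the largest falls (bottom) relative to the median locus, with 1 point per library in the order KO, del-cIDR and WT. At the first rising copy the 60 min libraries lie between 1.68 and 4.23 and the 10 min libraries between 0 and 0.929.

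Other copies that moved with time apart from their neighbours were named after their values were seen. At chr2:109730305-109730357, 53 bases long, the 60 min libraries had 2.65, 3.27 and 4.36 RPM and the 10 min libraries 0, 1.56 and 2.33, while the neighbours had a slope of −0.16. The copy lay 0.87 per doubling above them (limma, adjusted p = 0.000178). The copies at chr11:59682832-59682970 and chr10:86671099-86671162 lay 0.77 and 0.74 above their neighbours (limma, adjusted p = 0.00659 and 0.0014). At chr17:83699476-83699625 and chr17:34330191-34330306 the copy lay −0.87 and −0.80 below them (limma, adjusted p = 0.00131 and 9.29e-05).

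Genes that make, bind or silence SINE RNA were read from the gene table by a list of 36, all of which were tested. The list holds subunits and factors of RNA polymerase III, partners of 7SL and other SINE RNA, and chromatin regulators that repress SINEs. Compared with WT, KO had 4 of them higher and 4 lower (limma, adjusted p under 0.05, relative to the median gene), with a median of 0.0062 over the list and −0.012 over all 22448 genes tested. Of all genes 14.9% were higher and 15.9% lower. The higher ones were Brf2, a subunit of a polymerase III initiation factor (0.48 ± 0.08, limma, adjusted p = 0.000353), Cbx3, a heterochromatin protein 1 (0.43 ± 0.05), Adar, an RNA-editing deaminase (0.21 ± 0.06), and Polr3d, a polymerase III subunit (0.18 ± 0.05). Lower were Gtf3c1 and Gtf3c2, subunits of TFIIIC, which binds the internal promoter (−0.26 ± 0.04 and −0.16 ± 0.05), Setdb1, a histone H3 lysine methyltransferase (−0.25 ± 0.04), and Polr3e, a polymerase III subunit (−0.13 ± 0.04). On the spike-in scale, where the median gene lay 0.30 above WT, 5 were higher and none lower.

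In del-cIDR 4 genes of the list were higher and 9 lower than in WT, with a median of −0.054 against −0.017 over all genes, of which 10.8% were higher and 15.4% lower (limma, adjusted p under 0.05). The largest falls were those of Gtf3c6, a TFIIIC subunit (−0.43 ± 0.08, limma, adjusted p = 0.00175), Brf1, a TFIIIB subunit (−0.29 ± 0.05), Chd4, a chromatin remodeller (−0.28 ± 0.03), and Polr3b, a polymerase III subunit (−0.28 ± 0.04). Setdb1, Brf2, Suv39h1, Dhx9 and Cbx1 were lower by −0.15 to −0.24. Among the higher ones were Polr3gl (0.31 ± 0.10), Gtf3c4 (0.16 ± 0.04) and Gtf3c1 (0.15 ± 0.04). On the spike-in scale none of the list passed in del-cIDR in either direction.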

How the data were processed

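Nascent RNA captured after EU labelling was sequenced with a stranded total RNA kit, per the labels' protocols. Reads were handled with HISAT2, SAMtools and Picard on GRCm39, per the submitters' processing notes; what counted the reads, from which repeat annotation, by strand or not, and how multiply mapping reads were assigned is not given in the sources used here. The authors deposited log2 values, 1 per locus, genotype and later labelling time: the ratio of spike-in-scaled reads to those at 10 min, with both replicates combined and 1 added. Whole reads of all 24 libraries were recovered from these values for all loci (100% solved), with 1 B1 copy whose split between libraries was unclear. Replicate numbers could not be tied to the recovered libraries.

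Levels are reads per 11714 spike-in reads. Tests on single loci used limma 3.58.1 in R 4.3.3 on log2(level + 1), centred on the median tested locus, with Benjamini-Hochberg adjustment over all 306027 loci tested, and the script was checked on simulated data. Sums were tested by exact permutation, and p-values there were adjusted over the pairs or genotypes of a family. Sequencing depth sets part of the precision. The SE and SD values reflect the spread between libraries, while the limit for a count of 0 covers counting error only. The 6 copies named in each direction had the largest differences past an adjusted p of 0.05 with 1 sign at all 4 times (for the trend, in all 3 genotypes), at most 1 within 100 kb. Whether libraries overlapped at copies picked in this way is a description and no separate test. The planned limit of 1 copy per gene and the comparison of exons with introns were not run, since no GRCm39 annotation was used here, and no sequence is shown for the same reason. Members, lists and tests were chosen with earlier results of these data known. Alternatives covered scale, pseudocount, filters, voom weights, chromosomes, times and single libraries, and the comparison with repeats within 10 kb was added after seeing the data. The value of 1 gene of the list is not reported here.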

Additional observations from a re-analysis of the deposited data

Results flagged for a closer look

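In 5 results the later difference of del-cIDR from another genotype, minus that at 10 min, had an adjusted exact permutation p under 0.05. Genotype was permuted within each time, which assumes no genotype difference at any time, so the p does not test the change alone. This contrast was not among the planned tests. For the summed B1 level, the later difference minus that at 10 min was 1.1918 against WT (exact permutation p = 0.00617, adjusted 0.0185) and 1.7729 against KO (exact permutation p = 0.0309, adjusted 0.0463), both on the log2 scale. For the B1 share of repeat reads it was 0.1362 against WT (exact permutation p = 0.00154, the smallest possible, adjusted 0.00463) and 0.1905 against KO (exact permutation p = 0.00617, adjusted 0.00926). For B1 reads per B2 read it was 0.0639 against WT (exact permutation p = 0.00772, adjusted 0.0231), where the difference was −0.048 at 10 min and 0.029, −7e-05 and 0.018 at 20, 40 and 60 min. Against KO that quantity was 0.067 (exact permutation p = 0.211, adjusted 0.317), which did not pass. For B1 reads per B4 read it was 0.017 against WT and 0.024 against KO (exact permutation p = 0.457 and 0.230, adjusted 0.634 each). The mean B2 and B4 shares of del-cIDR at 10 min, 13.2% and 8.04%, were also the lowest of the 12 groups. Each of the 5 results rests on the 2 del-cIDR libraries of 10 min, which had the fewest repeat reads of all 24, 4289454 and 3654850. The part of their depth was not tested.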

How the results depend on the processing

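Differences in summed level, share and ratios to B2 and B4 kept their side of the threshold with tested copies alone, outside chromosomes 4, 6, 8, 11 and X and without the 100 copies with most reads. Without the 10 min libraries the share difference of del-cIDR from WT was 0.0489 and passed, the share trend of del-cIDR reversed to −0.0173, and that of WT was −0.0415. The count of B1 copies called between KO and WT was 611 of 29492 outside those chromosomes, 2241 on the spike-in scale and 2165 with a pseudocount of 4. It was 413 of 127917 tested with a mean level of at least 1, 2735 with voom weights and 3 relative to repeats within 10 kb. Over all loci 9445 were higher and 12713 lower with a pseudocount of 4, and 12772 and 15702 with voom weights. With the looser filter 2103 were higher and 4181 lower of 931272. Counts over all loci outside those chromosomes were not worked out. For del-cIDR against WT the B1 count was 320 outside those chromosomes, 173 on the spike-in scale and 170 with the looser filter. With voom weights it was 973, and relative to neighbours 2. Over all loci 908 were higher and 2499 lower with the looser filter, and 4193 and 8008 with voom weights. For del-cIDR against KO the B1 count was 1927 outside those chromosomes, 2656 of 12663 with the minimum level raised to 30, and 26 relative to neighbours. Of 108763 loci with that minimum 12231 were higher and 13914 lower. For the trend the B1 count was 42170 on the spike-in scale, 18648 with the looser filter and 5192 with the stricter one. It was 6461 without 10 min and 2059 relative to neighbours. Over all loci 92855 rose and 47258 fell with the looser filter, and 26840 and 18670 with the stricter one. Without 10 min 32540 rose and 19404 fell. The causes were not tested.

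Leaving out 1 library at a time gave level differences of 0.2496 to 0.4059 for KO against WT, 0.0719 to 0.238 for del-cIDR against WT and −0.2558 to −0.0897 for del-cIDR against KO. Share differences were 0.0113 to 0.0348, 0.0031 to 0.0266 and −0.0188 to 0.0023 for these pairs. Relative to B2 they were 0.0141 to 0.0265, −0.0074 to 0.0068 and −0.0277 to −0.0134, and relative to B4 −0.0125 to −0.0006, −0.0119 to 0.0018 and −0.0053 to 0.0084. Share trends were −0.0256 to −0.0156 in KO, 0.0353 to 0.0581 in del-cIDR and −0.0275 to −0.0004 in WT. Counts of called B1 copies were 723 to 1981, 285 to 1188 and 2786 to 5060 for the pairs and 8078 to 10992 for the trend. Counts over all loci moved between these settings as well.

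Values of named copies kept direction and side in 1543 cases, lost the threshold in 107, gained it in 19 and reversed in 9. Relative to neighbours the reversed values were −0.05827 at chr6:83710470-83710583, 0.006148 at chr5:104879676-104879819 and 0.4203 at chr1:9013653-9013799 in KO, 0.3074 at chr8:107396334-107396490 in del-cIDR, and −0.031 at chr15:103340361-103340478 and 0.02334 at chr19:5851997-5852144 for the trend. On the spike-in scale trends reversed at chr19:5851997-5852144 (0.4913), chrY:90807176-90807319 (0.6112) and chr8:43758743-43758903 (0.6248). No paired analysis was possible because the recovered libraries could not be tied to replicate numbers. The comparison of exons with introns was not run.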
